A study of Mus musculus with 12 samples.

Results

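The 9 genes described here belong to the phospholipase A2 family of skin: *Pla2g2e*, *Pla2g2f*, *Pla2g5* and *Pla2g3*, which encode secreted enzymes, and *Pla2g4a*, *Pla2g4b*, *Pla2g4d*, *Pla2g4e* and *Pla2g4f*, which encode cytosolic ones. They were taken by name from a count table of 21247 genes, with no threshold on a measured value, although earlier results of these data were known when the family was chosen. RNA-seq was performed on periocular skin biopsies of 4 ft/ft mice and 4 ft/ftMyD88-/- mice, all stated to be female, 6 weeks old and on a BALB/c background. The ft/ft mice carry a point mutation that arose spontaneously and inactivates filaggrin, without the linked *ma* mutation, and the ft/ftMyD88-/- mice carry it together with a deficiency of MyD88, the adaptor of Toll-like and IL-1 receptors, in the whole animal, so filaggrin function is lost in both groups. The 4 WT libraries of the series were not analysed here. The comparison asked how phospholipase A2 transcripts differed between ft/ft and ft/ftMyD88-/- mice, in skin without filaggrin. The study describes the periocular skin of ft/ftMyD88-/- mice at this age as always inflamed, with a thickened epidermis. It saw no visible inflammation in ft/ft mice. Inflammation and genotype therefore cannot be told apart in any difference below, and the part of inflammation was not tested.

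Phospholipases A2 cut the fatty acid from the middle carbon of a glycerophospholipid and leave a lysophospholipid. When the fatty acid is arachidonic acid, it feeds cyclooxygenases and lipoxygenases, which make prostaglandins, leukotrienes and hydroxy fatty acids. Secreted enzymes work on membranes and lipids outside the cell, while cytosolic enzymes of group IV act on membranes within it. In skin, Pla2g2f is known as the secreted enzyme of differentiating keratinocytes and Pla2g2e as one of the hair follicle.

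Library totals spanned 18941705 to 29255129 counts for ft/ft. They spanned 15802957 to 27037997 for ft/ftMyD88-/-, and the totals of the groups overlapped (exact permutation test, two-sided, p = 0.457). A count of 3 corresponded to 0.102 to 0.183 CPM, the count scaled to the library total after TMM normalization. *Myd88* itself was higher, not lower, where the labels say ft/ftMyD88-/- (41.2 ± 7.29 CPM against 30.7 ± 4.74 CPM, SD, n = 4, edgeR adjusted p = 0.0484), and a count per gene does not show which exons were read. *Tmem79*, in which the *ma* mutation lies, had 59.2 ± 2.92 CPM in ft/ft and 16.4 ± 2.10 CPM in ft/ftMyD88-/- with separate groups (log2 fold change -1.85, edgeR adjusted p = 5.08e-07), and its part in the differences below was not tested. *Flg*, which encodes filaggrin, had 103 ± 69.8 and 242 ± 39.5 CPM with overlapping groups (edgeR adjusted p = 0.120). *Xist* had 1 count over the 4 ft/ft libraries and 49.4 ± 13.3 CPM in the others, and the Y-linked *Ddx3y* stood at 65.0 ± 8.97 CPM and 0.147 ± 0.225 CPM. The ft/ft libraries therefore had the pattern of males, against the stated sex, and the ft/ftMyD88-/- libraries that of females. Sex and genotype cannot be told apart in any difference below. Marker transcripts of several cell types differed as well. Summed CPM of 11 markers of differentiated keratinocytes spanned 21298 to 26187 in ft/ft but 13223 to 16149 in ft/ftMyD88-/-. By the edgeR test 5 of them (45.5%) were lower and 2 (18.2%) higher, beside 12.3% and 10.9% of all genes tested. The sums of 13 sebocyte markers spanned 22186 to 25347 and 13456 to 19837, with 7 (53.8%) lower and 0 higher. By histology, the study found no difference in the number of sebaceous glands and markedly larger glands in ft/ftMyD88-/- mice. The 9 skeletal muscle markers were all (100%) lower, at 9904 to 13316 CPM in ft/ft against 3737 to 6963 CPM. In whole skin, fewer cells of a type and less RNA per cell cannot be told apart, and the part of these shifts in the values below was not tested. Ratios to summed marker CPM are given below as descriptions.

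The promoters of 3 members are shown first, because they belong to the most abundant member (*Pla2g2f*), the member that rose (*Pla2g4d*) and its neighbour on chromosome 2 that did not pass the test (*Pla2g4f*). Each runs 5′ to 3′ on the gene's own strand, from RefSeq on GRCm38.p6, and ends at the base before the first annotated transcript start. Capitals mark every match, on either strand, to CCACNCCC, the letters of a Krüppel-like factor box. The *Pla2g2f* window is chr4:138757627-138757848 on the minus strand with 222 bases, that of *Pla2g4d* is chr2:120289198-120289319 on the minus strand with 122 bases, and that of *Pla2g4f* is chr2:120314166-120314415 on the minus strand with 250 bases.
Pla2g2f: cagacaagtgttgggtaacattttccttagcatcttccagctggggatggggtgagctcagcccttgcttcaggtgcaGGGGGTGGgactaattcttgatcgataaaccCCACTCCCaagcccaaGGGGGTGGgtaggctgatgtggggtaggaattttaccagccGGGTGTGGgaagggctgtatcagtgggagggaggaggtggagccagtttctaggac
Pla2g4d: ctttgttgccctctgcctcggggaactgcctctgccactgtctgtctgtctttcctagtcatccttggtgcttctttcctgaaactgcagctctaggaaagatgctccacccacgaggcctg
Pla2g4f: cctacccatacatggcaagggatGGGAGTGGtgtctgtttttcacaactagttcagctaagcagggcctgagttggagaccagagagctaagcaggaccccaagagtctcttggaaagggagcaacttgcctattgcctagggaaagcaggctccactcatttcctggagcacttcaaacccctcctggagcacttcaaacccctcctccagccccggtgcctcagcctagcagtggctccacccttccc
The *Pla2g2f* window held 4 matches. At least 1 match was found in 13.8% of 27025 promoters over windows of that length, and 4 or more in 0.0814% of them. The *Pla2g4d* window held 0, where 6.23% of windows of its length held a match, and the *Pla2g4f* window held 1, where 15.8% did. The other motifs searched on both strands were the AP-1 letters TGANTCA, the TATA box with the letters TATAAA, the nuclear receptor site with the letters AGGTCA and the E-box with the letters CACGTG, and each was found 0 times in these 3 windows. The letters were chosen after the sequences and the counts had been seen, a match is not a binding site, and no measurement of binding was made here.

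Of the 9 members, *Pla2g4d* was higher in the libraries labelled ft/ftMyD88-/-, *Pla2g2f*, *Pla2g3* and *Pla2g4a* were lower, and the other 5 did not pass (edgeR quasi-likelihood test, adjusted p under 0.05 over all genes). That is 1 gene higher and 3 lower, where 10.9% of 20454 genes tested were higher and 12.3% lower, 23.3% in all. All 9 passed the filter of 10 summed counts. The median log2 fold change of the members, ft/ftMyD88-/- over ft/ft, was -0.11, and -0.24 over the 8 without *Pla2g4b*, which was barely detected, against 0.013 over all genes tested. With library size as the only scaling, 2 members were higher (*Pla2g4d* and *Pla2g4e*) and 2 lower (*Pla2g2f* and *Pla2g3*). From these same libraries the study reported arachidonic acid metabolism among the sebaceous pathways with lower genes. The direction of *Pla2g2f* and *Pla2g3* here is therefore not independent evidence for that report.

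**Figure D1:**
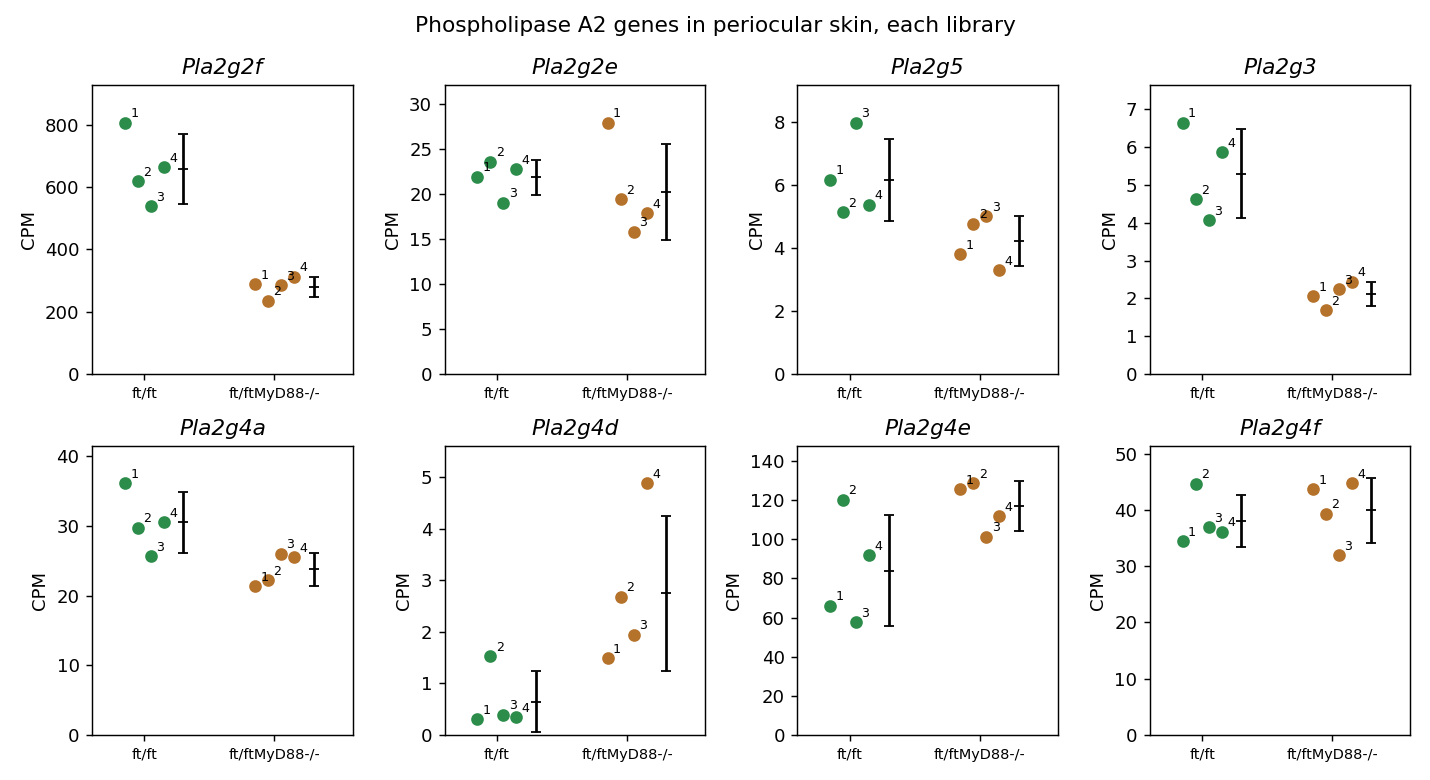
CPM (linear axes from 0) of 8 phospholipase A2 genes in each of the 4 ft/ft (green) and 4 ft/ftMyD88-/- (brown) libraries; points are libraries with their replicate number, and bars are the mean ± SD. The *Pla2g2f* and *Pla2g3* points separate completely, while for *Pla2g4d* 1 ft/ft library, replicate 2 at 1.53 CPM, reaches the lowest ft/ftMyD88-/- library at 1.49 CPM.

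Among the secreted enzymes, *Pla2g2f* (chromosome 4, 138750533 to 138757626, minus strand, GRCm38 as for all gene positions) showed the largest change in CPM. It stood at 807, 619, 540 and 665 CPM in ft/ft replicates 1 to 4 and at 289, 236, 285 and 313 CPM in the libraries labelled ft/ftMyD88-/-. The lowest ft/ft library was above the highest ft/ftMyD88-/- library, and the ft/ft libraries varied more. The means were 657 ± 112 CPM and 281 ± 32.3 CPM (SD, n = 4 each). The log2 fold change was -1.23 ± 0.131 (standard error) with an edgeR adjusted p of 0.000118, which left 42.7% of the ft/ft level. It kept its direction and its call in all 15 alternative analyses, from -1.31 to -1.05 on the log2 scale. Set against the summed CPM of the differentiated keratinocyte list, a ratio chosen after seeing the data, *Pla2g2f* had a log2 difference of -0.48. The groups were separate (exact permutation test, two-sided, p = 0.0286, which 4 against 4 cannot go below). Against the sebocyte list the difference was -0.70 (exact permutation p = 0.0286). Abundant markers dominate these sums. In the first, *Krt77* fell from 4229 to 622 CPM and *Lor* from 4030 to 1417 CPM, while *Krt1* overlapped (5564 and 5197 CPM) and *Casp14* rose from 110 to 235 CPM. *Scd1*, the largest sebocyte marker, fell from 13795 to 8763 CPM. The ratios therefore do not measure *Pla2g2f* per cell, and the part of cell composition was not tested.

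*Pla2g3* (chromosome 11, 3488284 to 3499350, plus strand) encodes a secreted enzyme related to that of bee venom and was far less abundant. Its ft/ft libraries stood at 6.64, 4.62, 4.07 and 5.87 CPM and those labelled ft/ftMyD88-/- at 2.06, 1.69, 2.25 and 2.44 CPM. As for *Pla2g2f*, the groups did not overlap, and replicate 1 was the highest ft/ft library while replicate 2 was the lowest of the other group. The mean fell from 5.30 ± 1.17 to 2.11 ± 0.319 CPM (log2 fold change -1.34 with a standard error of 0.200 and an edgeR adjusted p of 8.16e-04), and the call held in all 15 alternatives. Per unit of the differentiated keratinocyte list the log2 difference was -0.57, again without overlap (exact permutation p = 0.0286), and per unit of the sebocyte list it was -0.79 with overlapping groups (exact permutation p = 0.0571). Of the 4696 exon bases of *Pla2g3*, 401 are shared with *Inpp5j* on the other strand, and no strand setting is named for the counting. *Inpp5j* was at 1.00 ± 0.274 CPM and 1.22 ± 0.293 CPM, with an edgeR adjusted p of 0.506.

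The remaining secreted members lie beside *Pla2g2f* in a stretch of 132 kb on chromosome 4. *Pla2g5* (138799244 to 138863482, minus strand), known from macrophages and other cells, stood at 6.17, 5.13, 7.98 and 5.37 CPM in ft/ft and 3.81, 4.78, 5.0 and 3.29 CPM in ft/ftMyD88-/-. The groups did not overlap, as for 26.7% of all genes tested, yet the difference of -0.53 on the log2 scale (standard error 0.189) did not pass with edgeR (adjusted p = 0.0611) and did with DESeq2 (adjusted p = 0.0396). *Pla2g2e* (138877942 to 138882817, plus strand) stood at 21.9, 23.6, 19.1 and 22.8 CPM in ft/ft and 28.0, 19.4, 15.9 and 17.9 CPM in ft/ftMyD88-/-. These libraries overlapped, with ft/ftMyD88-/- replicate 1 the highest of all 8. That library also had the highest summed CPM of 13 anagen hair follicle markers, 18024, where the others labelled ft/ftMyD88-/- had 2556, 3966 and 9552 and ft/ft had 2004 to 2909. The library with 9552, ft/ftMyD88-/- replicate 4, had *Pla2g2e* at 17.9 CPM, below every ft/ft library. The part of hair follicles in *Pla2g2e* was not tested. The *Pla2g2e* difference was -0.11 (95% interval -0.45 to 0.24, edgeR adjusted p = 0.662). These 3 members of 1 cluster had differences of -1.23, -0.53 and -0.11 on the log2 scale. *Otud3*, another gene beside this cluster, was at 12.8 ± 0.780 CPM and 12.4 ± 2.02 CPM (edgeR adjusted p = 0.846).

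Of the cytosolic enzymes, *Pla2g4a* (chromosome 1, 149829618 to 149961290, minus strand) encodes the calcium-dependent enzyme best known for releasing arachidonic acid. It stood at 36.1, 29.7, 25.6 and 30.5 CPM in ft/ft and 21.3, 22.2, 26.0 and 25.5 CPM in ft/ftMyD88-/-, so that ft/ft replicate 3 lay among the other group. The difference was -0.36 on the log2 scale (standard error 0.118, edgeR adjusted p = 0.0434). This call was lost in 8 of 15 alternatives, among them library size as the only scaling (-0.18, adjusted p = 0.261) and the data without any 1 of ft/ft replicates 1, 2 and 4 or ft/ftMyD88-/- replicates 1, 2 and 4 (adjusted p up to 0.114, log2 fold change -0.27 at the least). Per unit of the differentiated keratinocyte list its direction turned, to 0.39, with no overlap (exact permutation p = 0.0286). Per unit of the basal keratinocyte list it was 0.21 and per unit of the sebocyte list 0.17, with overlapping groups in both (exact permutation p = 0.229 and 0.4). The summed CPM of each of these lists was itself lower in ft/ftMyD88-/- without overlap, so a gene with steady CPM comes out higher in these ratios.

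The other 4 cytosolic members lie within 281 kb on chromosome 2. *Pla2g4d* (120265595 to 120289197, minus strand), described in the skin disease psoriasis, was read 7, 42, 7 and 9 times in ft/ft, compared with 34, 73, 57 and 80 times in ft/ftMyD88-/-. In CPM these were 0.300, 1.53, 0.390 and 0.345 against 1.49, 2.68, 1.94 and 4.88. The overlap came from ft/ft replicate 2 alone. *Pla2g4d* rose by 2.02 on the log2 scale (standard error 0.562, edgeR adjusted p = 0.0290), from 0.641 ± 0.592 to 2.75 ± 1.5 CPM. Without ft/ft replicate 2 the rise was 2.96 (adjusted p = 0.00181), and the call was lost without any 1 of ft/ft replicates 1, 3 and 4 or ft/ftMyD88-/- replicates 2 and 4 (log2 fold change 1.63 to 2.02, adjusted p up to 0.0799). The same ft/ft replicate 2 held the group's highest summed CPM of 7 neutrophil markers, 263 where the other ft/ft libraries had 31.2 to 43.4 and those labelled ft/ftMyD88-/- had 406 to 967. In ft/ft replicate 2 and in ft/ftMyD88-/- that sum is mostly *S100a8* and *S100a9*, which inflamed keratinocytes also express. By the edgeR test 1 of 6 markers (16.7%) was higher, beside 10.9% of all genes. The defining markers *Ly6g* and *Retnlg* were not analysed here, *Cxcr2* overlapped between groups (adjusted p = 0.383), and the part of neutrophils in *Pla2g4d* was not tested.

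*Pla2g4e* (chromosome 2, 120166412 to 120245335, minus strand) encodes an enzyme that makes N-acyl phosphatidylethanolamines. Its levels were 66.1, 120, 57.5 and 92.0 CPM in ft/ft and 126, 129, 101 and 112 CPM in ft/ftMyD88-/-. Again ft/ft replicate 2 lay among the other group. The difference of 0.48 (standard error 0.212, edgeR adjusted p = 0.136) did not pass, but did without ft/ft replicate 2 (0.70, adjusted p = 0.0107) and with library size as the only scaling (0.65, adjusted p = 0.0466). *Pla2g4f* (120299957 to 120314165, minus strand), a further group IV enzyme, stood at 34.4, 44.7, 36.9 and 36.2 CPM in ft/ft and 43.7, 39.4, 31.9 and 44.8 CPM in ft/ftMyD88-/-. The groups overlapped almost fully, with a difference of 0.07 (95% interval -0.19 to 0.33, edgeR adjusted p = 0.727). Per unit of the differentiated keratinocyte list the log2 differences were 1.27 for *Pla2g4e* and 0.81 for *Pla2g4f*, without overlap (exact permutation p = 0.0286 each). The list's summed CPM was itself lower in every ft/ftMyD88-/- library, so a gene with steady CPM comes out higher in this ratio. The ratio therefore does not show a rise of either gene. *Pla2g4b* (120033417 to 120043030, plus strand) was read 0, 1, 0 and 3 times in ft/ft, compared with 2, 1, 3 and 2 times in ft/ftMyD88-/-, at or below 3 counts in every library, and no fold change is given. Of its 5831 exon bases, 3878 are shared with the readthrough gene *Gm28042* on the same strand and 792 with *Sptbn5* on the other strand.

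**Figure D2:**
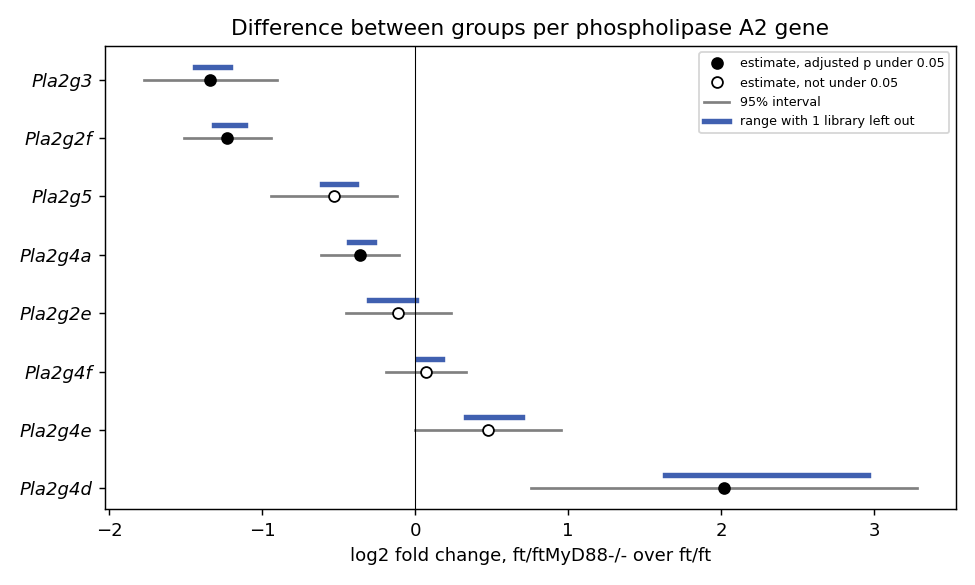
log2 fold change (ft/ftMyD88-/- over ft/ft) of 8 members; points are edgeR estimates (filled where the adjusted p is under 0.05), grey lines 95% intervals and blue lines the range with 1 library left out. *Pla2g3* and *Pla2g2f* lie far below 0, at -1.34 and -1.23, and *Pla2g4d* at 2.02 has the widest interval.

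Levels were then compared between genes per kb of exon. In ft/ft, *Pla2g2f* stood at 267 ± 45.5 CPM per kb, *Pla2g2e* at 23.8 ± 2.15, *Pla2g4e* at 12.1 ± 4.06, *Pla2g4f* at 11.9 ± 1.43, *Pla2g4a* at 4.77 ± 0.675, *Pla2g5* at 2.14 ± 0.447, *Pla2g3* at 1.13 ± 0.249 and *Pla2g4d* at 0.174 ± 0.161 CPM per kb. Of neighbours in this order, only *Pla2g4e* and *Pla2g4f* had overlapping libraries. In the libraries labelled ft/ftMyD88-/-, the order was the same down to *Pla2g5*, with *Pla2g2f* at 114 ± 13.1 and *Pla2g2e* at 22.1 ± 5.81 CPM per kb. *Pla2g4d* at 0.745 ± 0.408 CPM per kb then stood above *Pla2g3* at 0.449 ± 0.0679 CPM per kb, although their libraries overlapped. *Pla2g2e* and *Pla2g4e*, and *Pla2g5* and *Pla2g4d*, overlapped there too. The length-scaled total of the 9 members was 323 ± 46.6 CPM per kb in ft/ft and 172 ± 15.1 CPM per kb in ft/ftMyD88-/-. *Pla2g2f* made up 79.5% to 86.0% of that total in ft/ft and 62.2% to 70.4% in ft/ftMyD88-/-, so it stayed the most abundant member in each of the 8 libraries.

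**Figure D3:**
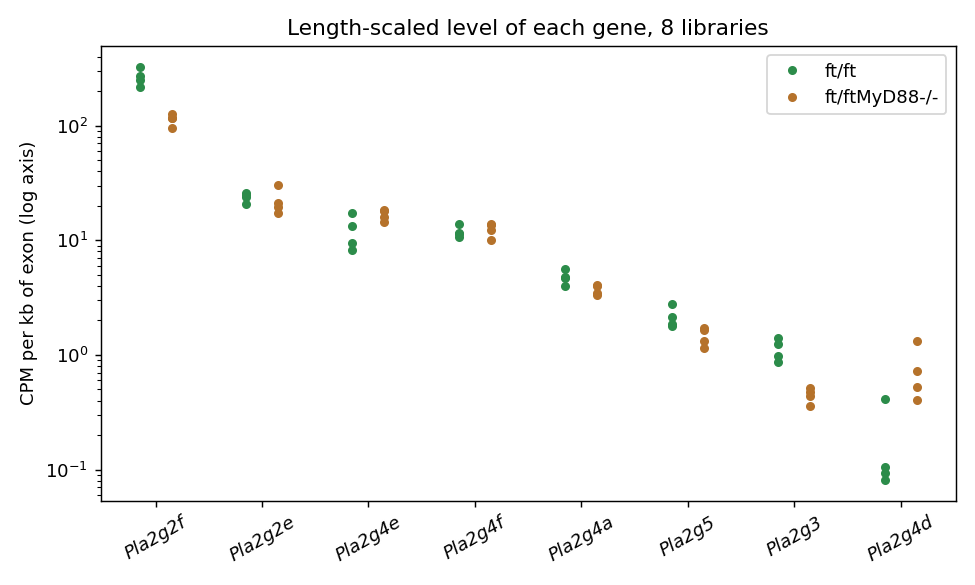
Level of 8 members in CPM per kb of exon (log axis), ordered by the ft/ft mean; each point is 1 of 4 ft/ft (green) or 4 ft/ftMyD88-/- (brown) libraries. *Pla2g2f* lies above every other member in both groups, and *Pla2g3* and *Pla2g4d* exchange places.

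Some members also varied together from library to library. Over the 8 libraries *Pla2g2f* and *Pla2g3* had a Pearson r of 0.99 in log2 CPM, and 0.96 for deviations from the group means. *Pla2g4a* followed both within groups, with an r of 0.83 to *Pla2g2f* and 0.86 to *Pla2g3*. Within groups, *Pla2g4d*, *Pla2g4e* and *Pla2g4f* had r from 0.57 to 0.65 with each other. *Pla2g2e* had 0.51 to *Pla2g4e* and 0.55 to *Pla2g4f*, but -0.14 to *Pla2g4d*. *Pla2g5* had a negative r within groups to every other member compared, from -0.67 (*Pla2g4f*) to -0.28 (*Pla2g4a*). In ft/ft replicate 2, *Pla2g4d*, *Pla2g4e* and *Pla2g4f* lay above their group means by 1.44, 0.58 and 0.24. Their r without that library was not computed. *Pla2g2f* and *Pla2g4e* had an r of -0.08 within groups, where the 8 libraries together gave -0.64. These values are descriptions over 8 libraries that share their scaling, in 2 groups that differ in cell type markers.

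**Figure D4:**
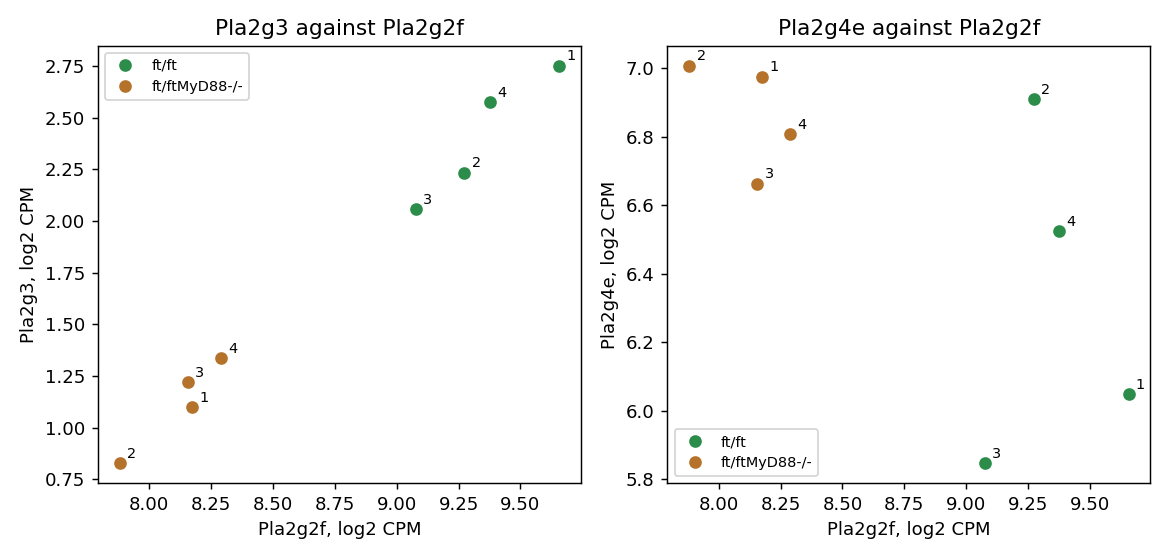
log2 CPM of *Pla2g3* (left) and *Pla2g4e* (right) against *Pla2g2f* in 4 ft/ft (green) and 4 ft/ftMyD88-/- (brown) libraries, labelled by replicate. *Pla2g3* follows *Pla2g2f* along a line within each group (r = 0.96 for deviations from group means), while *Pla2g4e* does not (r = -0.08).

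Among 13507 genes with a mean of at least 50 counts, the closest in pattern to *Pla2g2f* were *Pla2g3* (r = 0.99) and RP23-73B23.4 (r = 0.99), and those closest to *Pla2g3* were *Pla2g2f* and RP23-390G1.4 (r = 0.99). *Pla2g4a* was nearest to *Orm1*, an acute-phase glycoprotein (r = 0.99), and *Btc*, a ligand of the EGF receptor (r = 0.98). *Pla2g4e* was nearest to *Ddhd1*, a phospholipase A1 (r = 0.98), and *Degs2*, which makes phytoceramides (r = 0.98). *Pla2g2e* was nearest to *Scnn1b* (r = 0.96) and *Pvrl2* (r = 0.95), *Pla2g4f* to *Sh3gl1* and *Epb41l4a* (r = 0.96 each), and *Pla2g5* to *Trp53i13* (r = 0.99) and *Rxrb* (r = 0.98). Such values are the highest of 13507 over 8 points, and were not tested.

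Of 72 further genes of phospholipid and arachidonate metabolism, 67 were tested, of which 6 (8.96%) were higher and 19 (28.4%) lower in the libraries labelled ft/ftMyD88-/-, beside 10.9% and 12.3% of all genes. Their median log2 fold change was -0.07, against 0.013 over all genes. With library size as the only scaling, under which the median of all genes moved to 0.19, the split was 20 higher and 16 lower. DESeq2 called 14 higher and 21 lower. Without ft/ftMyD88-/- replicate 1 there were 11 higher, and without ft/ftMyD88-/- replicate 4 there were 3.

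Of 18 other phospholipase A2 enzymes tested, 2 (11.1%) were higher and 4 (22.2%) lower, beside 10.9% and 12.3% of all genes tested. The share higher was near that of all genes, and the median was -0.13 on the log2 scale. *Pla2g4c*, a calcium-independent cytosolic enzyme, rose from 0.530 ± 0.231 to 2.40 ± 1.43 CPM (log2 fold change 2.14, edgeR adjusted p = 0.00627), and *Pla2g7*, which breaks down platelet-activating factor, rose by 0.32. The lysosomal enzyme *Pla2g15* fell by 0.70, *Pnpla7* by 0.67 and the secreted *Pla2g12a* by 0.53 on the log2 scale. *Pla2g1b*, *Pla2g2a*, *Pla2g2c* and *Pla2g10* were not analysed here. Of 5 genes of the receptor and of proteins that bind or inhibit these enzymes, 0 were higher and 2 (40%) lower. *Pla2r1*, the receptor that binds secreted phospholipases A2, fell from 25.2 ± 3.00 to 11.6 ± 3.15 CPM (-1.11, edgeR adjusted p = 0.00104) without overlap, and the annexin *Anxa2* fell by 0.40.

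Downstream, 3 of 20 eicosanoid genes (15%) were higher and 6 (30%) lower, with a median of 0.23. For this list and those that follow, the shares of all genes tested were 10.9% higher and 12.3% lower. The constitutive cyclooxygenase *Ptgs1* fell from 97.5 ± 13.0 to 42.1 ± 7.56 CPM (-1.21, edgeR adjusted p = 0.000167), whereas the inducible *Ptgs2* rose from 1.97 ± 0.435 to 7.55 ± 3.67 CPM (1.93, adjusted p = 0.00335). The groups did not overlap for either gene. The thromboxane synthase *Tbxas1* rose by 0.59 and the prostaglandin E synthase *Ptges3* by 0.50. Of the epidermal lipoxygenases, *Aloxe3* fell by 1.00 and *Alox12* by 0.79 on the log2 scale. Of 8 genes that put fatty acids back onto lysophospholipids, 1 (12.5%) was higher and 4 (50%) lower (median -0.42). *Mboat2* fell by 1.16, *Lpcat3* by 0.98 and *Mboat7* by 0.66, and *Lpcat1* rose by 0.33. Of 10 genes of lysophospholipid breakdown and signalling, 1 (10%) was lower, the lysophosphatidic acid receptor *Lpar2* (-0.70), and 0 were higher. Of 6 N-acylethanolamine genes tested, 2 (33.3%) were lower and 0 higher. *Faah*, which degrades anandamide, fell by 0.89 and *Abhd4*, which acts on the N-acyl lipids that the Pla2g4e enzyme makes, fell by 0.86.

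**Figure D5:**
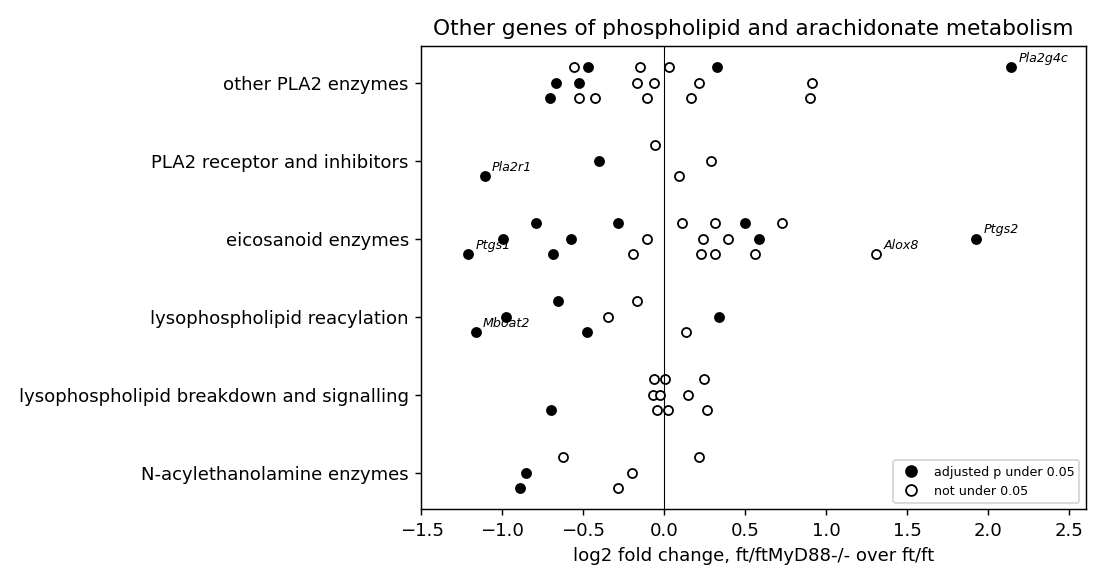
log2 fold change (ft/ftMyD88-/- over ft/ft) of the 67 tested genes in 6 lists, 1 point per gene, filled where the edgeR adjusted p is under 0.05; names are given beyond 1 on either side. *Pla2g4c* and *Ptgs2* lie farthest to the right, at 2.14 and 1.93, and *Ptgs1*, *Mboat2* and *Pla2r1* farthest to the left.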

How the data were processed

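RNA-seq of periocular skin gave 1 table of raw counts per gene, deposited by the authors, with a column for each of 4 ft/ft and 4 ft/ftMyD88-/- libraries. According to the study's methods, poly(A) RNA of snap-frozen biopsies was sequenced single-end, counted per gene by HTSeq at default settings after alignment (HISAT, TopHat2; GRCm38.p6). The submitters' processing notes instead name Cell Ranger and GRCm38, and the labels give a protocol for fixed tissue sections. The values are whole numbers per gene and library. The table was used as deposited.

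Genes with at least 10 summed counts were tested with edgeR 4.0.16 in R 4.3.3 (TMM, robust quasi-likelihood fit, two-sided, Benjamini-Hochberg adjusted p under 0.05 over all genes tested). On simulated counts for this comparison, 198 of 200 genes changed 4-fold were called, with 13 unchanged ones among 20161 tested. The changed genes were drawn from those with a mean of at least 50 counts. The figure therefore does not cover smaller changes or *Pla2g4d*, at a mean of 38.6 counts. CPM used TMM-scaled library totals, and CPM per kb the union of GENCODE M21 exons. Log2 CPM for correlations used TMM scaling and a prior count of 2. DESeq2 1.42.0 and limma 3.58.1 (voom), other scalings and filters, a replicate block, a stricter threshold of 0.01 and leaving out each library were alternatives. Replicates share numbers across groups, but their deviations did not pair them. All pairs of replicates differed by more than sampling noise (chi-square per degree of freedom at least 15.1). The study describes 4 mice per group, so each library was taken as 1 mouse. P-values and the 95% intervals of fold changes rest on the spread between libraries, and the floors of 3 counts cover counting error only.

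The 9 members, the 6 pathway lists and the 12 marker lists were chosen with earlier results of these data known. Named genes are all members, at most 3 called genes per direction with the largest log2 fold change in each pathway list, the 2 genes most like each member with a mean of at least 50 counts, neighbouring or overlapping genes, and *Myd88*, *Flg* and sex-linked checks. *Tmem79* was added outside this rule, with its values known. RefSeq held promoters for 7 of the 9 members. Printed windows were cut before the first annotated start of GENCODE or RefSeq.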

Additional observations from a re-analysis of the deposited data

Results flagged for a closer look

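*Pla2g4d* in ft/ft replicate 2, at 1.53 CPM (42 counts), lay far from the other 3 ft/ft libraries, which stood at 0.300 to 0.390 CPM. The gap to the nearest library exceeded Dixon's 95% critical value of 0.829 for 4 samples. It was the only one so set apart among 16 groups tested, and chance sets apart about 1 group in 20. In the same library *Pla2g4e* was the highest of the ft/ft group at 120 CPM, as was *Pla2g4f* at 44.7 CPM, and the summed CPM of the 9 hyperproliferative keratinocyte markers was 3893, against 2804 to 3102 in the other ft/ft libraries and 3700 to 6676 in those labelled ft/ftMyD88-/-. Without it, 2 members were higher in ft/ftMyD88-/- (*Pla2g4d* and *Pla2g4e*) and 2 lower.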

How the results depend on the processing

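*Pla2g2f* and *Pla2g3* kept their direction and call in all 15 alternatives. The number of members higher in ft/ftMyD88-/- was 1, and became 2 with library size only or a replicate block, 0 at an adjusted p under 0.01, and 0 to 2 with 1 library left out. The 3 lower became 2 to 3 with 1 library left out, and ran from 2 to 4 over all alternatives. Pathway genes higher numbered 6, and 14 with DESeq2, 20 with library size only, 3 at an adjusted p under 0.01 and 3 to 11 with 1 library left out. The 19 lower ran from 16 to 22. *Pla2g2e*, not called, turned to 0.066 with library size only, and ran from -0.30 to 0.0081 with 1 library left out, turning without ft/ftMyD88-/- replicate 3. Per summed CPM of differentiated keratinocyte markers, an alternative chosen after seeing the data, *Pla2g2e* turned to 0.61, *Pla2g4a* to 0.39 and *Pla2g5* to 0.20. The cause was not tested, but the list's summed CPM was lower in every ft/ftMyD88-/- library. Same-numbered libraries had deviations with r of -0.15, 0.03, 0.01 and -0.02, and 1 of 8 matched best with its own number, so the numbers did not pair them. The replicate block gave 2 members higher, 2 lower, 4 pathway genes higher and 18 lower, with *Pla2g4a* no longer called (-0.36, adjusted p = 0.0893) and *Pla2g4e* called (0.53, adjusted p = 0.0278). Depth limits *Pla2g4b*, at 3 counts or fewer per library.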

Other observations

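The remaining marker lists, counted by the same edgeR test, are given beside 10.9% of all genes called higher and 12.3% called lower. Of 7 basal keratinocyte markers 5 (71.4%) were lower and 0 higher in the libraries labelled ft/ftMyD88-/-, at 9838 to 12059 summed CPM against 14025 to 17176 in ft/ft. Of 9 hyperproliferative keratinocyte markers 1 (11.1%) was higher, a share near that of all genes, at 3700 to 6676 against 2804 to 3893 CPM. Their median log2 fold change was nevertheless 1.99, against 0.013 over all genes tested. Of 13 anagen hair follicle markers 2 (15.4%) were higher, with a median of 1.92. Of 9 macrophage markers 2 (22.2%) were higher, at 840 to 1150 against 609 to 813 CPM, and of 9 mast cell markers 2 (22.2%) were higher, at 114 to 184 against 116 to 148 CPM. Of 7 conjunctival and glandular markers 2 (28.6%) were lower, at 1038 to 1935 against 1407 to 2791 CPM. Photoreceptor markers summed to 4.29 CPM or less in every library, with 2 of 3 tested lower. All 4 Y-linked transcripts were lower and *Xist* was higher.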
